A study of Mus musculus with 4 samples.

Results

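The fibroblast growth factor (FGF) genes described here are 10 of the 21690 features measured by RNA-seq in mouse neural precursors, and they were chosen by symbol. They comprise 5 genes of secreted ligands (Fgf4, Fgf5, Fgf8, Fgf15 and Fgf17), Fgf13, whose product stays inside the cell, and the 4 receptor genes Fgfr1, Fgfr2, Fgfr3 and Fgfr4. The precursors were derived from an A2lox embryonic stem cell line with a doxycycline-dependent knockdown of Geminin, which had been kept on feeder fibroblasts and then differentiated on gelatin in the serum-free medium N2B27. The 3 Geminin knockdown libraries (plus Dox) came from independent experiments in which cells received 500 ng doxycycline from day 3 and were collected on day 5. The 1 control library came from the same knockdown cells collected on day 5 with no doxycycline. Every group thus carried the knockdown construct, the control has no replicate, and doxycycline and Geminin knockdown cannot be told apart. The control library carries the same replicate number, 1, as knockdown library 1, but the labels do not say which experiment it came from. Differences between experiments therefore cannot be separated from the knockdown in the comparisons with it.

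FGF ligands are secreted proteins that bind, together with heparan sulfate on the cell surface, to receptor tyrosine kinases. The activated receptors work through adaptor proteins, RAS and the ERK kinases, which switch on target genes, among them inhibitors that act back on the pathway. Mouse embryonic stem cells make FGF4, and ERK signalling downstream of it drives them out of the naive state and towards differentiation. In the later neural tube, FGF8 and its relatives act as patterning signals at the forebrain margin and at the boundary of midbrain and hindbrain.

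Fgf4 was the only one of the 10 genes that met the study's rule, which asks for a mark of significance in the same direction in at least 2 of the 3 tables, and it rose. No member fell. Over all features that could be called, 1.98% rose and 0.905% fell by this rule. Counting features at least 1 log2 unit apart in at least 2 tables in place of marks, Fgf4 was the only member, and it was higher. By that count 1.87% of features were higher and 1.1% were lower. These shares cover features with usable tests in all 3 tables and a mean of at least 1 FPKM. Fgf4 reached that mean only through knockdown libraries 2 and 3. The count reads the same values as the marks, so it is no separate support. In limma, which takes the spread between the knockdown libraries as error, 0 of the 8 members tested passed in either direction, beside 0.0251% of features that were higher and 0.1% that were lower. None of the 8 had an unadjusted p under 0.05 in limma, against 1.27% of features. The median log2 ratio of (FPKM + 1), knockdown over control, of these 8 was -0.10, 0.07 and -0.02 in knockdown libraries 1, 2 and 3, beside -0.02, 0.03 and 0.01 over all features tested. The plot of FPKM (fragments mapped per kilobase of exon, scaled to sequencing depth) by library shows the 10 genes side by side.

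**Figure D1:**
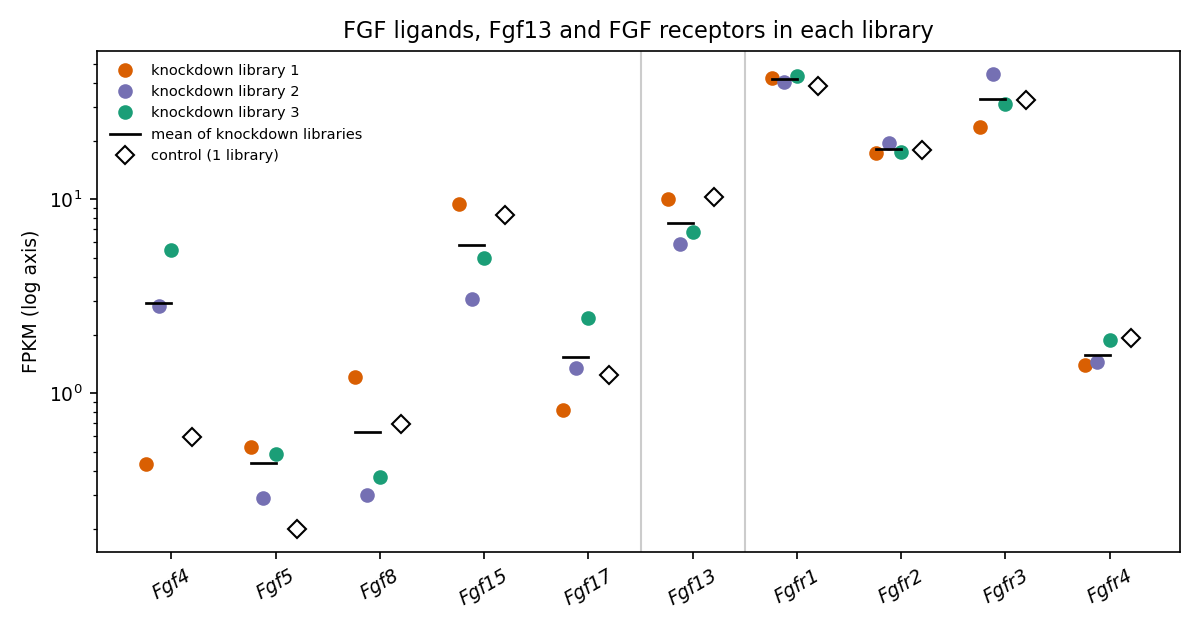
FPKM on a log axis of the 5 ligand genes, Fgf13 and the 4 receptor genes in 3 Geminin knockdown libraries (circles, with a line at their mean) and the control library (diamond). Fgf4 in knockdown libraries 2 and 3 stands above the control at 2.82 and 5.47 against 0.596 FPKM, while Fgfr1 and Fgfr2 lie close to the control in all 3.

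In the series as a whole 286 features rose and 131 fell, and 370 of these 417 calls came from knockdown libraries 2 and 3 with no mark in library 1. Gmnn, which encodes Geminin, had 27.0, 65.9 and 27.9 FPKM in knockdown libraries 1, 2 and 3, against 113 FPKM in the control, so it was lower in each. In percent of the control these levels were 24.0, 58.4 and 24.7. The authors' deposited tables marked Gmnn as lower in libraries 1 and 3 but not in library 2 (q = 0.0722). Sequencing depth relative to the control, read from the steps of the lowest features, was 1.00, 1.15 and 0.972 in these libraries. The labelled cell type was checked on 10 neural precursor genes: their summed FPKM was 945, 1757 and 1557 in knockdown libraries 1, 2 and 3 and 961 in the control, none was listed at 0, and the highest were Vim, Sox2 and Nes. Vim, the 1 of the 10 that rose, made up much of the difference in the sums, with 376, 1005 and 958 FPKM in knockdown libraries 1, 2 and 3, against 388 FPKM in the control. Sox1 was not called and had 63.8, 42.5 and 48.8 FPKM in the knockdown libraries, against 64.02 FPKM in the control. In bulk RNA, fewer cells of a type and less RNA per cell cannot be told apart.

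By level per length, averaged over the 4 libraries, the order was Fgfr1, Fgfr3, Fgfr2, Fgf13, Fgf15, Fgf4, Fgfr4, Fgf17, Fgf8 and Fgf5. The mean FPKM ran from 41.0 for Fgfr1 to 0.376 for Fgf5. The knockdown ranges of Fgfr1 and Fgfr3 overlapped, so their order was not settled, whereas the ranges of Fgfr3 and Fgfr2 and those of Fgfr2 and Fgf13 did not overlap. From Fgf13 down, each gene's knockdown range overlapped that of its neighbour in the order. Fgfr1, Fgfr2 and Fgfr3 were thus above each of the 5 ligand genes in all 4 libraries. In the control, Fgfr1 stood above 87.1% of all features and Fgf5 above 35.3%.

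Fgf4, the ligand of embryonic stem cells and of the early epiblast, lies on chromosome 7 from 152047291 to 152051148 (mm9). It had 0.432, 2.82 and 5.47 FPKM in knockdown libraries 1, 2 and 3, against 0.596 FPKM in the control. Libraries 2 and 3 were high and library 1 was slightly under the control, so the groups overlap. In percent of the control these levels were 72.5, 473 and 917. The authors' deposited tables gave q-values of 0.877, 0.0235 and 5.2e-05 for libraries 1, 2 and 3 and marked libraries 2 and 3. Of all features with a usable test there, 3.23% and 3.33% were marked as higher in libraries 2 and 3, and 5.24% and 4.62% in either direction. With the spread between the knockdown libraries as error, limma gave an Fgf4 log2 difference of 1.04 with a standard error of 0.88, which did not pass (adjusted p = 0.999). Without knockdown library 2, or without library 3, Fgf4 no longer met the study's rule, since both remaining tables had to mark it. Its mean log2 ratio was 1.64 without library 1 and 0.55 without library 3.

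The FPKM steps allow the reads behind Fgf4 to be estimated. The 4 values are matched, within 0.005%, by 8, 60 and 98 reads in knockdown libraries 1, 2 and 3 and 11 reads in the control, or by a common multiple of these. These steps fix the ratios between libraries and not the absolute number of reads.

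A window of 300 bases around the Fgf4 start is shown because Fgf4 was the member that was called, beside the windows of Fgf5, the other early embryo ligand, and of Fgf3, the gene next to Fgf4, neither of which was called. The sequences are RefSeq's, on build GRCm38.p6, run from 250 bases before to 50 bases after the start, and are given 5′ to 3′ on the plus strand, on which these 3 genes lie. Such a window was found for 6 of the 10 members. Capitals mark matches, on either strand, to 3 promoter motifs. The GC box was searched as GGGCGG. The CCAAT box was searched by the letters of its name. For the TATA box the letters were TATAAA, and no match overlapped that of another motif. The windows lie at chr7:144861136-144861435 for Fgf4, at chr5:98253934-98254233 for Fgf5 and at chr7:144838362-144838661 for Fgf3.
Fgf4: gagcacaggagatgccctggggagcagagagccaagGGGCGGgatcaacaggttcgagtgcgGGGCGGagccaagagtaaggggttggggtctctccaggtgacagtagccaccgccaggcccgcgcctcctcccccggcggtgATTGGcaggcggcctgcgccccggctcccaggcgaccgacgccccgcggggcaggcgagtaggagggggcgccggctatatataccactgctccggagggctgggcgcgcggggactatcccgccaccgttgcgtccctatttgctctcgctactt
Fgf5: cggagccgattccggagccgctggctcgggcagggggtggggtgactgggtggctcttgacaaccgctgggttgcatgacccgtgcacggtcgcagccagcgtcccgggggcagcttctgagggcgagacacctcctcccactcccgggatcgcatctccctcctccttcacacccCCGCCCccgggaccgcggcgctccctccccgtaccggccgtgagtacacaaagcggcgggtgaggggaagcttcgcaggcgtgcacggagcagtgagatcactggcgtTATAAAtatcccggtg
Fgf3: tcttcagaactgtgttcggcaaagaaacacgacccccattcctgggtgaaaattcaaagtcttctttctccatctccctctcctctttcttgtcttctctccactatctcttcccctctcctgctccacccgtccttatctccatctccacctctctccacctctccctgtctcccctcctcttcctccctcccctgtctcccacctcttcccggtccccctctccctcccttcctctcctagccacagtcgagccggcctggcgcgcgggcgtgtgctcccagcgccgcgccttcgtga
By these letters the Fgf4 window held 2 GC boxes and 1 CCAAT box, and the Fgf5 window held 1 GC box and 1 TATA box. None of the 3 motifs was found in the Fgf3 window. The TATAAA match of Fgf5 began at +34, which is after the start. The Fgf4 window also holds the letters tatatata before the start, which the exact search for TATAAA does not match. A GC box was present in 35.7%, a CCAAT box in 37.4% and a TATA box in 13.6% of 32851 windows of the same length. The matches describe letters only, and binding was not measured.

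Fgf4 lies between Fgf3 and Fgf15 with no other measured feature in the interval. The gaps are 18037 bases to Fgf3 and 31288 bases to Fgf15 (mm9). Fgf3 and Fgf4 had the same library order, with library 3 highest and library 1 lowest and under the control. In Fgf15 library 1 was highest and library 2 lowest. Relative to the control the 3 neighbours differed. Fgf3, a ligand of the hindbrain and inner ear region, had 5.55, 7.38 and 9.55 FPKM in knockdown libraries 1, 2 and 3, against 9.28 FPKM in the control sample, and was not called. Its level was thus low in library 1 and close to the control in library 3. Where Fgf4 was at 917% of the control, in library 3, Fgf3 was at 103% and Fgf15 at 60.3%.

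**Figure D2:**
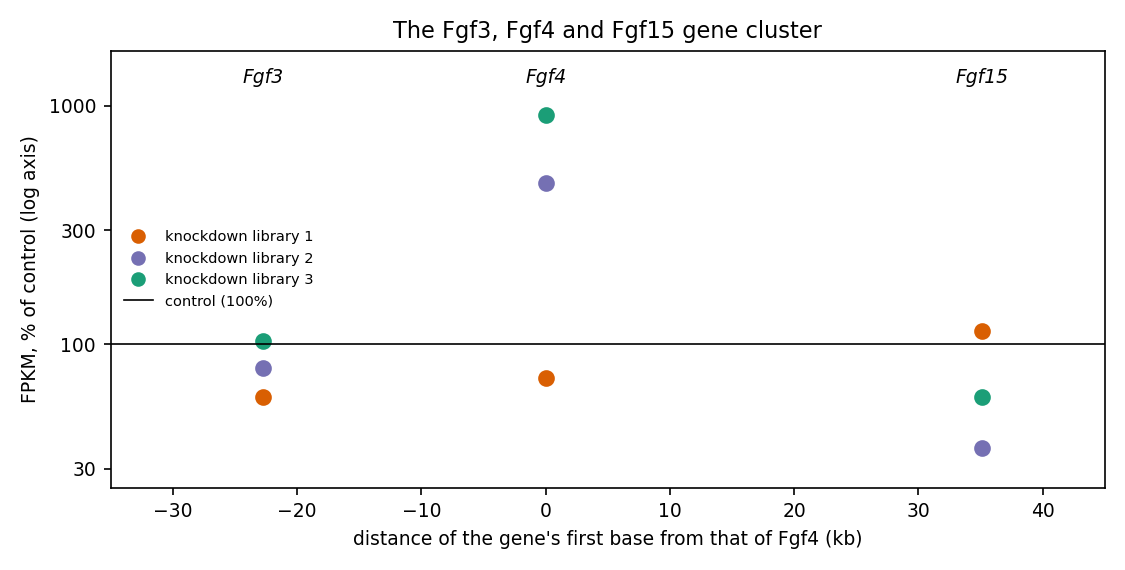
FPKM in percent of the control, on a log axis, for Fgf3, Fgf4 and Fgf15 in 3 Geminin knockdown libraries, placed by the distance in kb of each gene's first base from that of Fgf4. Fgf4 reaches 917% of the control in library 3, while Fgf3 and Fgf15 in the same library stand at 103% and 60.3%.

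Fgf15, the mouse counterpart of human FGF19, is expressed in the embryonic neural tube and, in the adult, in the gut, from which it acts on the liver. It lies on chromosome 7 from 152082437 to 152086856. Its level was 9.43, 3.07 and 5.01 FPKM in knockdown libraries 1, 2 and 3, against 8.31 FPKM in the control. Libraries 2 and 3 were low and library 1 was above the control. The matching reads were 99, 37 and 51 in the knockdown libraries and 87 in the control, or a common multiple. The authors' deposited table for library 2 gave p = 0.00884 but q = 0.123, and none of the tables marked Fgf15. The 95% interval implied by that table's test statistic placed library 2 between 17.5% and 77.8% of the control. In limma the log2 difference was -0.55 with a standard error of 0.56 (adjusted p = 0.999). The mean log2 ratio of Fgf15 was -0.91 without library 1 and -0.23 without library 2.

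The other ligands were low. Fgf17, a close relative of Fgf8 at the midbrain and hindbrain boundary, lies on chromosome 14 from 71036012 to 71042075. It had 0.824, 1.34 and 2.44 FPKM in knockdown libraries 1, 2 and 3, against 1.24 FPKM in the control. The library order matched that of Fgf4, with library 3 highest and library 1 under the control, and the matching reads were 8, 15 and 23 against 12, or a common multiple. Fgf17 was not called (limma log2 difference 0.13, standard error 0.44, adjusted p = 0.999). Fgf8, on chromosome 19 from 45811289 to 45817374, had 1.22, 0.301 and 0.370 FPKM in knockdown libraries 1, 2 and 3, against 0.697 FPKM in the control. Here library 1 was the high one. The authors' deposited tables gave no usable test for Fgf8 in any library. Fgf5, a ligand of the epiblast after implantation, lies on chromosome 5 from 98683203 to 98706049. It had 0.532, 0.289 and 0.484 FPKM in the 3 knockdown libraries, against 0.200 FPKM in the control. All 3 knockdown values were above the control, yet all were under 1 FPKM and the authors' deposited tables held no usable test for Fgf5 either.

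Markers of the regions and stages in which these ligands are used gave the following values, beside 1.98% of all callable features that rose and 0.905% that fell. The summed FPKM of 9 genes of the midbrain and hindbrain boundary was 33.1, 42.7 and 31.2 in knockdown libraries 1, 2 and 3 and 32.6 in the control, with Sp8 and Gbx2 the highest and neither called. En2, a homeobox gene of that boundary, was the 1 gene of the list that rose, at 0.504, 2.47 and 1.75 FPKM against 0.276 FPKM. In library 2 alone Pax2 and Pax8 were marked as higher, at 9.51 against 0.731 FPKM and 2.80 against 0.0659 FPKM in the control. Pax2, at 0.146 and 2.26 FPKM in libraries 1 and 3, made up much of the higher sum in library 2. For 11 genes of the primitive streak and caudal embryo the sums were 2.80, 9.52 and 12.3 in the knockdown libraries and 2.86 in the control. Tcf15 alone rose among them, at 0.420, 7.85 and 10.2 FPKM in knockdown libraries 1, 2 and 3, against 0.842 FPKM in the control. The higher sums in libraries 2 and 3 came from Tcf15, and only 3 of the 11 genes could be called. Cdx4, Mesp1 and Msgn1 were listed at 0 in all 4 libraries. T stayed between 1.01 and 1.11 FPKM in the knockdown libraries, against 1.58 FPKM in the control. Of 7 primed epiblast genes, 6 could be called, 4 fell and 0 rose. Their summed FPKM was 170, 154 and 126 in the knockdown libraries and 167 in the control. The highest were Sox4, Dnmt3b and Cldn6, of which Dnmt3b and Cldn6 fell, as did Wnt8a and Pou3f1.

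The naive pluripotency list, like Fgf4, was highest in library 3, next in library 2 and nearest to the control in library 1. Its 10 genes summed to 51.3, 273 and 438 FPKM in knockdown libraries 1, 2 and 3 and to 36.8 FPKM in the control. Of these genes 7 rose and 0 fell, beside 1.98% and 0.905% of all features that could be called. The highest were Dppa5a, Zfp42 and Nanog, and Nanog overlaps Nanogpd, so its reads are uncertain. Prdm14 was listed at 0 in library 1 and in the control, and Nr0b1 in the control. Feeder fibroblast genes also had their highest sum in library 3: 10 genes summed to 40.1, 59.2 and 94.4 FPKM in the knockdown libraries and 36.5 FPKM in the control, 2 (Lox and Postn) rose, and Col1a1, Col1a2 and Pdgfra were the highest. For 12 neuronal genes library 2 was the highest, with sums of 187, 628 and 320 FPKM against 175 FPKM in the control. Of these genes 11 could be called and 6 rose. Nefm, Tubb3 and Nefl, the highest by mean level, were among the 6. Stmn2, the next highest, was not called and lay the other way, at 75.4, 44.6 and 40.5 FPKM in knockdown libraries 1, 2 and 3, against 66.9 FPKM in the control, with a mark as lower in the authors' deposited table for library 3. The naive and fibroblast lists have been seen to move in these libraries before and are not independent support. The part of each of these cell types in the Fgf4 values was not tested.

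Fgf13, on chromosome X from 56315328 to 56387613, encodes a protein that binds voltage-gated sodium channels and microtubules in neurons. It had 10.1, 5.86 and 6.82 FPKM in knockdown libraries 1, 2 and 3, against 10.2 FPKM in the control. Libraries 2 and 3 were lower and library 1 was close to the control. In percent of the control the levels were 98.4, 57.2 and 66.6, a mean of 74.1% ± 21.6 (SD, n = 3). Fgf13 was not marked in any of the authors' deposited tables, where q was 0.434 in library 2 and 0.632 in library 3, and limma gave a log2 difference of -0.42 with a standard error of 0.32 (adjusted p = 0.999). Of 6 sodium channel alpha subunit genes none was called. Scn8a, the highest, had 4.08, 2.90 and 2.21 FPKM in knockdown libraries 1, 2 and 3, against 3.51 FPKM in the control. Mir504 overlaps the Fgf13 feature.

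**Figure D3:**
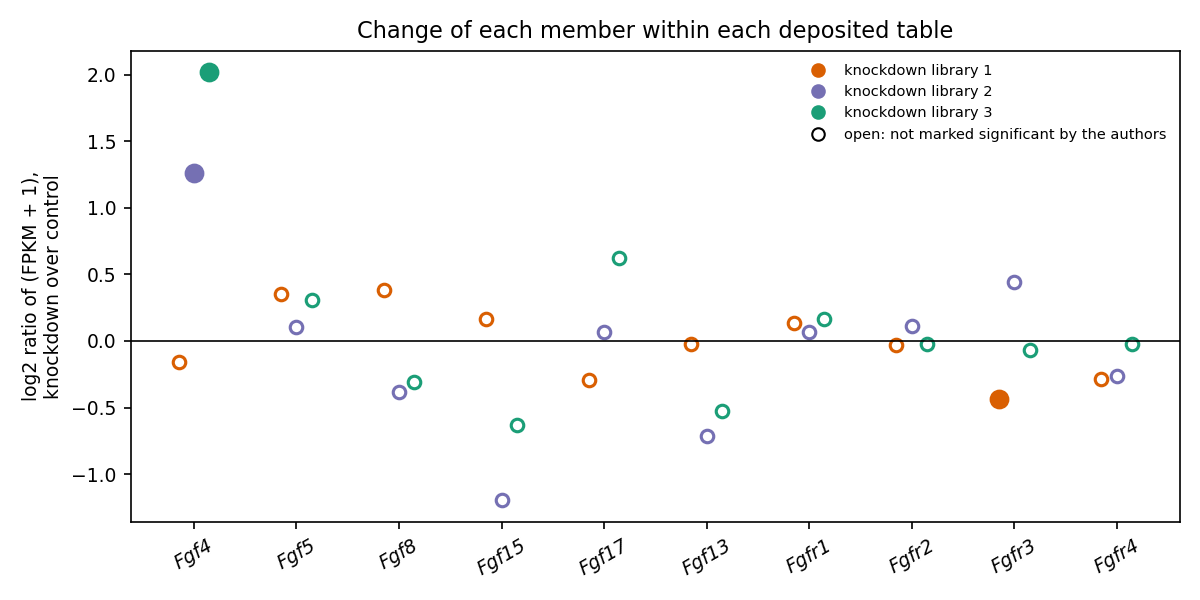
The log2 ratio of (FPKM + 1), knockdown over control, of each of the 10 genes in each of 3 deposited tables. Filled circles are marked significant by the authors: Fgf4 at 1.26 and 2.02 in libraries 2 and 3, and Fgfr3 at -0.44 in library 1.

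Among the receptors, Fgfr1 and Fgfr2 kept a nearly even level over the libraries, whereas Fgfr3 moved in opposite directions in libraries 1 and 2. None of the 4 met the study's rule or passed limma. FPKM per gene does not separate the splice forms of the receptors, which differ in the ligands they bind.

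Fgfr1, the main FGF receptor of embryonic stem cells and the early neural plate, lies on chromosome 8 from 26629244 to 26686186. Its level was 42.2, 40.2 and 43.2 FPKM in knockdown libraries 1, 2 and 3, against 38.4 FPKM in the control. All 3 knockdown libraries were above the control, at 109% ± 4.03 (SD, n = 3) of it. The intervals implied by the authors' deposited tables ran from 99.6% to 122%, from 82.6% to 133% and from 90.9% to 140% of the control in libraries 1, 2 and 3. In limma the log2 difference was 0.12 with a standard error of 0.12 (adjusted p = 0.999). Of the 8 members that could be tested by limma, Fgfr1 was the 1 above the control in all 3 libraries, and 2, Fgf13 and Fgfr4, were below it in all 3. Over all features tested, 22.6% lay above and 22.6% below in all 3, or 45.2% on 1 side, so these counts are close to the background.

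Fgfr2, a receptor with epithelial and mesenchymal splice forms, lies on chromosome 7 from 137305965 to 137410322. It had 17.4, 19.4 and 17.6 FPKM in knockdown libraries 1, 2 and 3, against 17.9 FPKM in the control. The control lay inside the knockdown range, and the level was 102% ± 6.28 (SD, n = 3) of it. By the deposited tables the 95% intervals were 82.4% to 116%, 79.0% to 150% and 72.9% to 133% of the control. The limma log2 difference was 0.02 with a standard error of 0.15 (adjusted p = 0.999).

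Fgfr3, a receptor of ventricular zone progenitors in the neural tube, lies on chromosome 5 from 34064373 to 34079712. It had 23.7, 44.6 and 30.9 FPKM in knockdown libraries 1, 2 and 3, against 32.5 FPKM in the control. Library 1 was low and library 2 was high. These levels were 73.0%, 137% and 95.04% of the control. The authors' deposited table marked the lower level in library 1 (q = 1.45e-05), and the table for library 2 gave p = 0.0096 and q = 0.13 for the higher one. The 95% intervals of these 2 libraries, 65.1% to 81.9% and 108% to 174% of the control, do not overlap, although both are set against the same control. The mean over the 3 was 102% ± 32.6 (SD, n = 3) of the control, and limma gave a log2 difference of -0.02 with a standard error of 0.36 (adjusted p = 0.999). The mark in library 1 was 1 among 8 members tested there, beside 0.909% of features marked as higher and 1.52% marked as lower, or 2.43% in all. No member was marked as lower in libraries 2 and 3, where 2.02% and 1.28% of features were.

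Fgfr4, which works with the coreceptor beta-Klotho as a receptor for FGF15 in the liver, was low and lies on chromosome 13 from 55254179 to 55270120. It had 1.40, 1.44 and 1.88 FPKM in knockdown libraries 1, 2 and 3, against 1.93 FPKM in the control. All 3 were under the control, the nearest at 97.4% of it. The reads that match these values were 27, 32 and 35 in the knockdown libraries and 37 in the control, or a common multiple, and Fgfr4 was not called (limma log2 difference -0.19, standard error 0.28, adjusted p = 0.999). Klb, which encodes beta-Klotho, had 2.27, 2.59 and 2.10 FPKM against 2.46 FPKM.

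**Figure D4:**
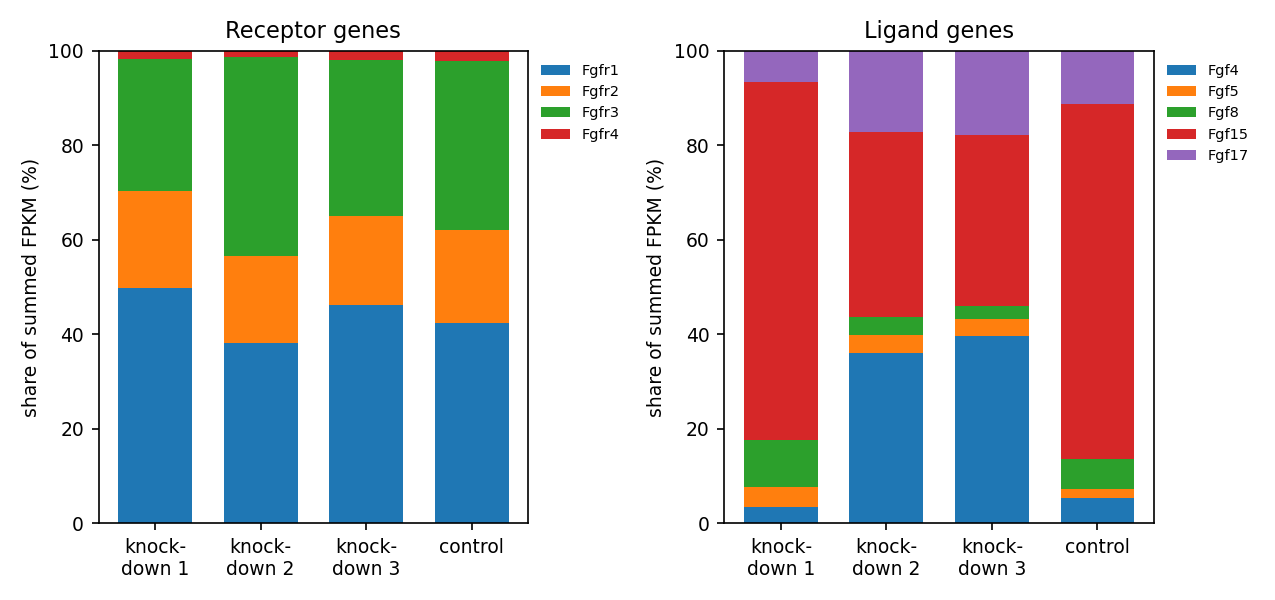
Share in percent of the summed FPKM that each receptor gene (left) and each of the 5 ligand genes (right) held in 3 Geminin knockdown libraries and the control. Fgf4 held 36.1% and 39.7% of the ligand sum in knockdown libraries 2 and 3, and 5.40% in the control library.

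The makeup of the receptor sum was steadier than that of the ligand sum. Summed over the 4 receptors, the level was 84.7, 106 and 93.5 FPKM in knockdown libraries 1, 2 and 3, against 90.6 FPKM in the control. Fgfr1 held 49.8%, 38.0% and 46.2% of it in the knockdown libraries and 42.3% in the control. The knockdown mean was 44.7% ± 6.02 (SD, n = 3), which differs from the control by less than the SD. Fgfr3 passed Fgfr1 as the largest share in library 2 only, with 42.2%.

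The 5 ligands summed to 12.4, 7.82 and 13.8 FPKM in knockdown libraries 1, 2 and 3, against 11.04 FPKM in the control. Fgf15 held 75.8%, 39.2% and 36.4% of this sum in the knockdown libraries and 75.3% in the control. Fgf4 held 3.48%, 36.1% and 39.7% in the knockdown libraries and 5.40% in the control. Library 1 was thus close to the control in both shares, while libraries 2 and 3 had a ligand sum made in similar parts of Fgf4 and Fgf15. Over all measured secreted FGF genes, Fgf3 held the largest share in the control, 38.1%, and 27.5% ± 2.36 (SD, n = 3) in the knockdown libraries.

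Of 16 other FGF genes 1 rose, 0 fell and 15 were not called, and only 8 could be called. Over all features that could be called, 1.98% rose and 0.905% fell. Fgf1, a broadly acting ligand, was listed at 0 in knockdown library 1 and had 1.22 and 2.11 FPKM in libraries 2 and 3, against 0.0413 FPKM in the control. The authors' deposited tables marked it in libraries 2 and 3 (q = 0.0275 and q = 0.00576), and it overlaps Gm5820, so its reads are uncertain. Fgf18, which was singled out after its values were seen, had 0.346, 3.16 and 4.11 FPKM in knockdown libraries 1, 2 and 3, against 0.174 FPKM in the control. It matched 2, 21 and 23 reads against 1, or a common multiple, and was not marked in the authors' deposited tables, where q was 0.0933 in library 2 and 0.0551 in library 3. Fgf6, Fgf20 and Fgf23 were listed at 0 in all 4 libraries.

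**Figure D5:**
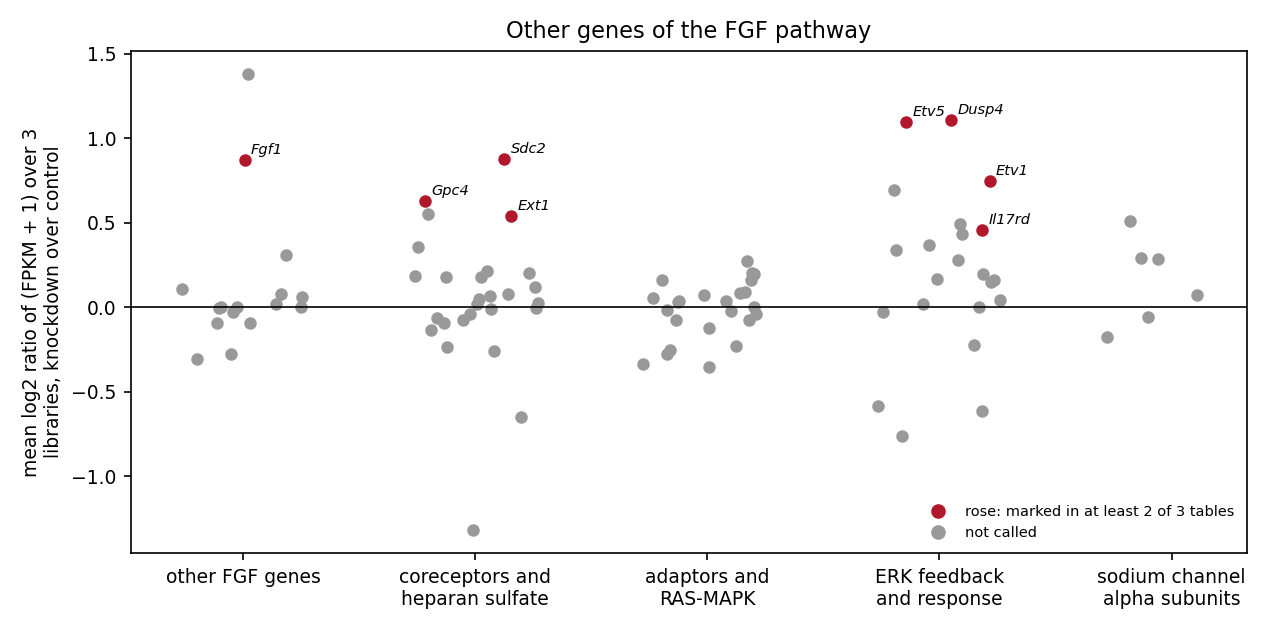
Mean log2 ratio of (FPKM + 1) over 3 tables, knockdown over control, of the genes in 5 lists of the FGF pathway. Red genes rose by the study's rule (8 in all, 4 of them ERK feedback and response genes), and no gene fell.

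Among 27 genes of coreceptors and heparan sulfate, which holds FGF at the cell surface, 3 rose, 0 fell and 24 were not called. Of these genes 26 could be called, and over all features that could be called 1.98% rose and 0.905% fell. Sdc2, a heparan sulfate core protein, had 14.5, 42.3 and 32.2 FPKM in knockdown libraries 1, 2 and 3, against 14.3 FPKM in the control. Gpc4, a glypican, had 56.9, 104 and 122 FPKM against 57.7 FPKM. Ext1, a polymerase of heparan sulfate, had 29.95, 54.6 and 61.9 FPKM against 31.8 FPKM. In all 3 genes library 1 was close to the control. Fgfbp1, a secreted carrier that releases FGF from the matrix, lay the other way at 120%, 6.90% and 37.4% of the control in knockdown libraries 1, 2 and 3. Sulf1, a sulfatase that trims heparan sulfate, was at 99.8%, 37.4% and 67.0% of the control. Both were marked as lower in the authors' deposited table for library 2 alone, so neither was called. Gpc1 and Gpc3 were marked as lower in library 1 alone, at 77.7% and 66.6% of the control. In libraries 2 and 3 Gpc1 was at 108% and 88.9% of the control, and Gpc3 at 129% and 122%. The median log2 ratio of the list's tested genes was -0.04, 0.20 and 0.19 in libraries 1, 2 and 3, beside -0.02, 0.03 and 0.01 over all features tested.

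None of 24 adaptor and RAS-MAPK genes was called. Nras, which encodes a RAS protein, had 56.7, 64.2 and 63.9 FPKM in knockdown libraries 1, 2 and 3, against 53.6 FPKM in the control. Their list had median log2 ratios of -0.05, 0.03 and 0.07. Araf was listed at 0 in all 4 libraries, but its status was a failed test in each of the authors' deposited tables. Its listed 0 is therefore not a measured level.

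Of 22 ERK feedback and response genes 4 rose, 0 fell and 18 were not called, and 21 could be called. Over all features that could be called, 1.98% rose and 0.905% fell. Dusp4, a phosphatase that acts on ERK, had 16.4, 61.4 and 50.6 FPKM in knockdown libraries 1, 2 and 3, against 16.7 FPKM in the control. Etv5, a transcription factor induced by FGF, had 8.74, 15.1 and 29.1 FPKM against 6.84 FPKM, and its relative Etv1 had 1.61, 3.39 and 3.70 FPKM against 1.25 FPKM. Il17rd, a membrane inhibitor of FGF signalling, had 7.15, 5.25 and 9.19 FPKM against 4.85 FPKM. The median log2 ratio of the list's tested genes was 0.17, 0.15 and 0.40 in libraries 1, 2 and 3. Over all features tested it was -0.02, 0.03 and 0.01. Some response genes lay the other way in single libraries. The authors' deposited table for library 2 marked Dusp5, Egr1 and Myc as lower, at 35.1%, 47.2% and 38.2% of the control, and none of these was marked in library 1 or 3. Spry4 and Dusp6 were marked as higher in library 3 alone, at 526% and 188% of the control. In Etv5, as in Fgf4, library 3 was highest, library 2 next and library 1 nearest to the control. Over the 5 pathway lists 8 genes rose. Without knockdown library 2 the count was 1, Il17rd, and without library 3 it was 0.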

How the data were processed

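Expression was measured by RNA-seq in 3 Geminin knockdown libraries and 1 control library, which per the labels were sequenced on 1 lane. Per the submitters' processing notes, the reads were aligned with TopHat and quantified with Cufflinks and Cuffdiff on mm9; the versions used, like the annotation, were not given in the sources used here. Each of the 3 full tables the authors deposited sets 1 knockdown library against the shared control, as FPKM with a Cuffdiff p-value and with a q-value and a natural log ratio that were treated as scores. Each such test compares 2 libraries, not the conditions. The other 2 deposited files repeat marked features and were not used. Locus starts in the tables count from 0 and were raised by 1.

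Ratios were formed within a table. The study's rule could be applied to 14477 features with a usable test in at least 2 tables. limma 3.58.1 in R 4.3.3, with a trended prior variance, was fitted to log2(FPKM + 1) of 11968 features with usable tests in all 3 tables and a mean of at least 1 FPKM. Fold changes on this scale understate changes of low genes. P-values were adjusted by Benjamini-Hochberg over all features tested, with a threshold of 0.05. With 2 residual degrees of freedom, the spread rests on the knockdown samples, and the single control is taken to vary alike; 3 features were called higher and 12 lower, which is 0.0251% and 0.1%, and none was a member. Permuting 3 libraries against 1 could give no exact one-sided p below 0.25. Intervals come from the deposited test statistics and cover the error of that test only. Absolute depth is unknown; relative depth and whole reads were read from FPKM steps with a tolerance of 0.005%. All 10 members are named. Of the pathway lists, called genes or else the 2 most abundant are named, and of the marker lists up to 3 genes by level. En2, Stmn2, Sox1, Dusp5, Egr1, Myc, Spry4, Dusp6, Fgfbp1, Sulf1, Lox, Postn, Wnt8a, Pou3f1, Klb, Fgf18 and Fgf3 (the neighbour of Fgf4) were named after their values were seen. Some genes that this rule names are not reported here. Members and lists were chosen with earlier results of these data known.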

Additional observations from a re-analysis of the deposited data

How the results depend on the processing

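No paired analysis was possible because the groups share only replicate number 1. Fgf4 was also called by a fold rule (1 log2 unit or more, in 2 or more tables), which reads the same values as the marks. The number of members that rose was 0 with a mark in all 3 tables, 0 with q under 0.01 and 0 to 1 with a library left out. That no member fell held in each of these settings. Of the pathway lists, 8 genes rose in the reported count, 0 with a mark in all 3 tables, 3 with q under 0.01, 5 with the fold rule and 0 to 7 with a library left out, and 1 gene, Fgfbp1, fell with the fold rule. Leaving out 1 library asks for a mark in each table that is left. limma called 0 members under all alternatives (pseudocount 0.1, centring on the median, no level filter, a filter at 5 FPKM that left 5 members, no trend and each library left out), as in the reported fit, where 0 had an unadjusted p under 0.05. Without library 1, 2 members had, with a smallest adjusted p of 0.43. The mean log2 ratio changed sign for 4 members with a library left out, none of them called: it ran from -0.35 to 0.038 for Fgf8 (0.038 without library 2 and 0.00054 without library 3), from -0.12 (without library 3) to 0.34 for Fgf17, from -0.028 (without library 2) to 0.046 for Fgfr2 and from -0.25 to 0.19 for Fgfr3 (0.19 without library 1 and 0.0033 without library 3). The cause was not tested. Counted over all measured secreted FGF genes, the Fgf15 share in knockdown was 23.2% in place of 50.5%. For Fgf13 the mean log2 ratio was -0.27 without library 2 and -0.62 without library 1. Absolute depth is unknown, so what it limits for the low ligands was not measured.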
